A study of Mus musculus with 15 samples.

Results

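Celecoxib and rofecoxib, 2 selective inhibitors of cyclooxygenase-2, were compared directly in the mouse thoracic aorta, library against library. The comparison used all 5 celecoxib libraries and all 5 rofecoxib libraries, 10 of the 15 in the series, and every gene with enough reads to test, which were 15134 of the 37681 rows of the count table. All mice were wild-type C57BL/6 males of 10 to 12 weeks on regular chow. Each received 100 µL by gavage, either celecoxib at 30 mg/kg, rofecoxib at 10 mg/kg or the vehicle alone, polyethylene glycol (PEG-400), and was killed 6 hours later at zeitgeber time 11, late in the light phase. The labels call the 5 libraries of a group biological replicates. Because the 2 drugs were given at different doses, a difference between the groups cannot be assigned to the compound rather than to its dose: the 2 cannot be told apart here.

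Cyclooxygenases turn arachidonic acid into prostaglandin H2, from which the synthases of each cell make prostacyclin, thromboxane and the other prostanoids. In the vessel wall prostacyclin relaxes smooth muscle and restrains platelets, while thromboxane does the opposite. Both drugs block the inducible enzyme encoded by Ptgs2 in preference to the constitutive enzyme encoded by Ptgs1. Celecoxib is a diaryl pyrazole with a primary sulfonamide, a group that also binds carbonic anhydrases, whereas rofecoxib is a furanone with a methylsulfone.

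Every library held between 30937046 and 30967115 counts, a spread of 0.0971% of the mean, and between 19158 and 19746 genes with at least 1 count. All 26 contractile genes of smooth muscle on the list used were expressed, with summed levels of 73037 to 80335 CPM (counts scaled to library size) after celecoxib and 70925 to 86409.9 after rofecoxib, so the defining genes of the labelled tissue were present. The leading principal component of the 10 libraries carried 55.2% of the variance and was led by genes of sympathetic neurons (Dbh, Npy, Th). Summed sympathetic transcripts ranged from 73.4 to 1351 CPM after celecoxib and from 76.8 to 909.5 CPM after rofecoxib, with celecoxib 4, rofecoxib 5 and rofecoxib 3 at the top. The second component, 13.6%, was led by Mt2, Mt1 and Fkbp5 and set celecoxib 1 apart. The third component carried 7.84%. None of the 3 differed between the drugs beyond the spread of the libraries: exact two-sided permutation tests gave p = 0.889, 0.183 and 0.421 (Benjamini-Hochberg adjusted 0.889, 0.548 and 0.631), where the smallest p this design allows is 0.00794. In whole tissue, fewer cells of a type and less RNA per cell cannot be told apart.

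No gene passed the test between the drugs after correction for all genes tested. By edgeR's quasi-likelihood test 0 of 15134 genes passed an adjusted p of 0.05 (background 0%), and the smallest adjusted p was 0.526, shared by 4 genes. Before adjustment, 1053 genes (6.96% of those tested) had p under 0.05, where 757 would be expected if no gene differed: 613 higher after celecoxib (4.05%) and 440 lower (2.91%). The 5 values of one drug lay wholly outside the 5 of the other for 200 genes (1.32%), 104 higher after celecoxib (0.687%) and 96 lower (0.634%). For a gene that did not differ, the probability of such separation is 0.00794, the smallest p of the permutation tests above. DESeq2, run as an alternative on the same counts, called 19 genes (0.131% of the 14540 it gave an adjusted p), 16 higher and 3 lower after celecoxib, and 13 of the 19 were among the 20 genes described here as those of smallest edgeR p, 10 per direction at a mean of at least 1 CPM. The limma-voom alternative called 0, with 1001 at an unadjusted p under 0.05. A gene below is therefore described as higher or lower by its measured values, and none passed the main test.

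The fold changes were small for most of the transcriptome. Over all genes tested, the median log2 fold change (celecoxib minus rofecoxib) was 0.00517, and the middle 90% of genes lay between -0.32 and 0.40. Of the 13210 genes with a mean of at least 1 CPM, 53 differed by more than 2-fold in the estimate, 48 of them higher after celecoxib and 5 lower. For 12248 of these genes (92.7%) the whole 95% interval lay within 2-fold in either direction, and for 10466 (79.2%) within 1.5-fold. The interval had a median half-width of 0.21 on the log2 scale, or 1.15-fold. The 48 and 5 genes beyond 2-fold were not counted again without celecoxib 1. At an unadjusted p under 0.05, edgeR without that library gave 352 genes higher after celecoxib (2.3%) and 293 lower (1.91%). With it the counts were 613 and 440. From here on, a difference given with its 95% interval is a log2 fold change, celecoxib minus rofecoxib, so that a negative value is lower after celecoxib. Where 5 CPM values are set against 5 others, those of celecoxib 1 to 5 come first. The plot of all genes shows the 10 genes of smallest p in each direction at a mean of at least 1 CPM, which reach from Hif3a at a log2 fold change of 1.45 to Cdh16 at -0.98.

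**Figure D1:**
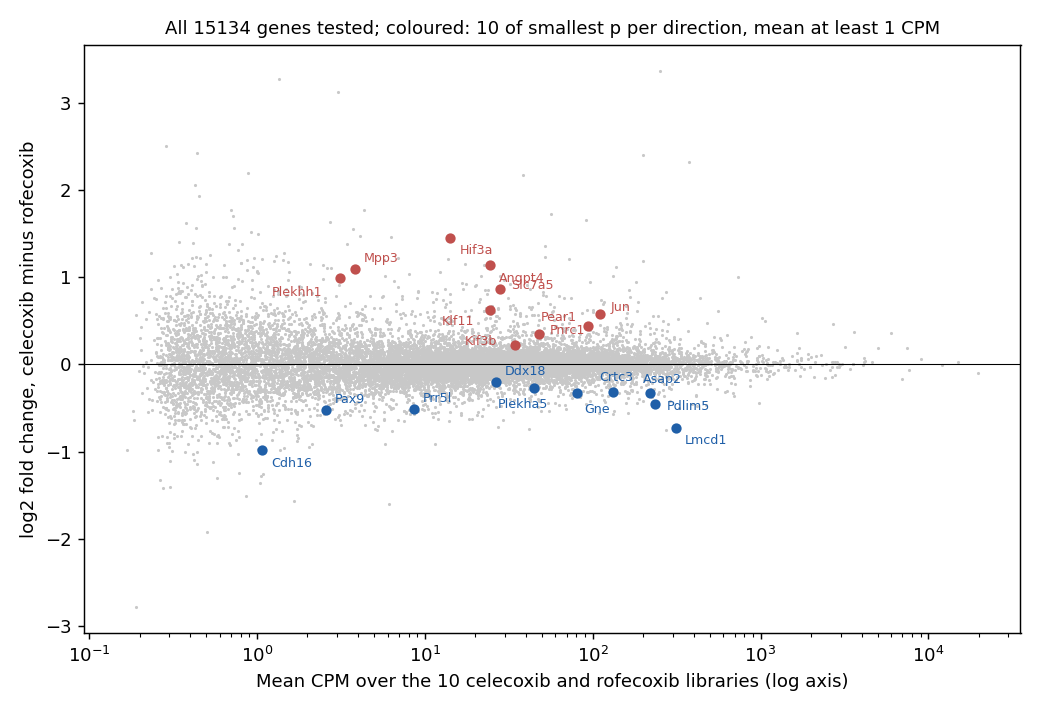
Log2 fold change (celecoxib minus rofecoxib, 5 libraries each) against mean CPM on a log axis for the 15134 genes tested, each a grey point. Red and blue points are the 10 genes of smallest p higher and the 10 lower after celecoxib at a mean of at least 1 CPM, from Hif3a at 1.45 to Cdh16 at -0.98, and none of them passed the adjusted threshold.

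The promoters of 5 of the genes described are shown because they differ in their exact matches to 4 motifs. Whether any match acts on its gene was not tested. Each is the RefSeq sequence of the 250 bases before a transcription start site in the GRCm38.p6 build, 5′ to 3′ on the strand of the gene. Capitals mark any match, on either strand, to the cyclic AMP response element TGACGTCA, the AP-1 element TGACATCA of the Jun promoter, the E-box CACGTG or the palindromic glucocorticoid response element.
Lmcd1: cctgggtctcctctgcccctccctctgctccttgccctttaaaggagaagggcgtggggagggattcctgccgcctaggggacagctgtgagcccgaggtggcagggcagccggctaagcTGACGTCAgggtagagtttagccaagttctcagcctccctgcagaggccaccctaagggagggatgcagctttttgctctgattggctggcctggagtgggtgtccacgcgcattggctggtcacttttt
Angpt4: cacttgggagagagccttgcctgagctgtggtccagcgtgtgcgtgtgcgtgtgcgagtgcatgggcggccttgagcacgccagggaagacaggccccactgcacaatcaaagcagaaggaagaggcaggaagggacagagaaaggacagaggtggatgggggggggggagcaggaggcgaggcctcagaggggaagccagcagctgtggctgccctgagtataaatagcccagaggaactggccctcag
Jun: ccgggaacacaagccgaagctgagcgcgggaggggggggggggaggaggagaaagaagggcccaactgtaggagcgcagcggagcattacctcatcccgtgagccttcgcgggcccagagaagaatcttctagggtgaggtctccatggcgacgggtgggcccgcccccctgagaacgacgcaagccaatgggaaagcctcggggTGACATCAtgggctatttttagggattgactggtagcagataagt
Fkbp5: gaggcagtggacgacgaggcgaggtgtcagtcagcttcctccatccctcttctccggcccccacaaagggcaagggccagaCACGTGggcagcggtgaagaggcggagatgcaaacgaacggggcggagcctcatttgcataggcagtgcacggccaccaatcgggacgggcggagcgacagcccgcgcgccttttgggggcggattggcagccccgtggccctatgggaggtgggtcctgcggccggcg
Sgk1: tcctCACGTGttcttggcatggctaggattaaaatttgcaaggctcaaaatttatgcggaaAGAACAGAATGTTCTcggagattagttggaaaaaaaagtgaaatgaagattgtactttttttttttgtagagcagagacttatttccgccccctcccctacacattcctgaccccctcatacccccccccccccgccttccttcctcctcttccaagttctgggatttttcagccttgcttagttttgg
These windows lie at chr6:112273508-112273757, plus strand (Lmcd1), chr2:151910957-151911206, plus strand (Angpt4), chr4:95052223-95052472, minus strand (Jun), chr17:28486150-28486399, minus strand (Fkbp5) and chr10:21993640-21993889, plus strand (Sgk1). The Lmcd1 window, of the gene with the smallest p, holds 1 cyclic AMP response element. The Jun window holds 1 match to TGACATCA, which was fixed in advance because that motif was taken from the Jun promoter. Other forms of the AP-1 element were not searched. The Angpt4 window holds none of the 4 motifs. Among all 32851 promoter windows of that length, 1.55% hold the cyclic AMP response element, 2.93% the AP-1 element, 6.02% the E-box and 0.00913% (3 windows) the glucocorticoid response element. Of the 28 tested genes on the glucocorticoid list, 25 matched a promoter entry, and 1 of their 39 windows held the glucocorticoid response element: the Sgk1 window printed here, 1 of several start sites of that gene, which also holds an E-box. No bases outside the 250 of each window were searched. Of the 4 motifs, the Fkbp5 window holds an E-box only. Sgk1 was singled out for that sequence after its values were seen, and it lay close between the drugs, at 202, 105, 165, 172 and 182 CPM after celecoxib 1 to 5 and 163, 174, 135, 120.1 and 174 after rofecoxib 1 to 5 (log2 fold change 0.11, edgeR, unadjusted p = 0.583).

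Among the genes higher after celecoxib, Angpt4 had the smallest p. It encodes angiopoietin 4, a secreted ligand of the endothelial receptor Tie2, and its gene body lies at chr2:151736741-151771275 in the mm9 build of the count table. Its level was 42.5, 33.8, 30.0, 24.5 and 37.2 CPM in celecoxib 1 to 5 and 15.5, 7.91, 15.2, 15.8 and 22 in rofecoxib 1 to 5, so the lowest celecoxib library stood above the highest rofecoxib library. The ratio was 2.2-fold with a 95% interval of 1.61 to 3.0 (a log2 fold change of 1.13 ± 0.21 (SE), edgeR adjusted p = 0.526). Vehicle libraries held 20.1, 20.6, 24.7, 24.6 and 27.4 CPM, between the 2 drugs on average. Leaving out any 1 of the 10 celecoxib and rofecoxib libraries kept the log2 fold change between 0.97 and 1.31.

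Jun, the AP-1 subunit induced early by many stimuli (chr4:94715523-94719115, mm9), was at 138, 169, 146, 101 and 109.8 CPM after celecoxib and 97.6, 81.3, 84.3, 95.9 and 86.3 after rofecoxib. No value overlapped, although celecoxib 4 exceeded rofecoxib 1 by little. The ratio was 1.49-fold with a 95% interval of 1.25 to 1.78 (edgeR adjusted p = 0.605), beside 100.0 ± 9.45 CPM (mean ± SD, n = 5) in vehicle libraries. Slc7a5, the light chain of the large neutral amino acid transporter, was at 56.5, 29.2, 36.8, 33.1 and 25.4 CPM after celecoxib and 20.0, 21.5, 18.9, 17.6 and 21 after rofecoxib. Its ratio was 1.83-fold with a 95% interval of 1.37 to 2.44, and celecoxib 1 was the highest library. Leaving out celecoxib 1 moved the log2 fold change from 0.87 to 0.65. Klf11, a Kruppel-like transcription factor, reached 36.9, 37.6, 24.9, 23.5 and 26.4 CPM after celecoxib against 19.4, 16.7, 21.1, 20.7 and 19.1 after rofecoxib, again without overlap (1.54-fold with a 95% interval of 1.25 to 1.9). The plot of the genes of smallest p sets these libraries beside the vehicle.

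**Figure D2:**
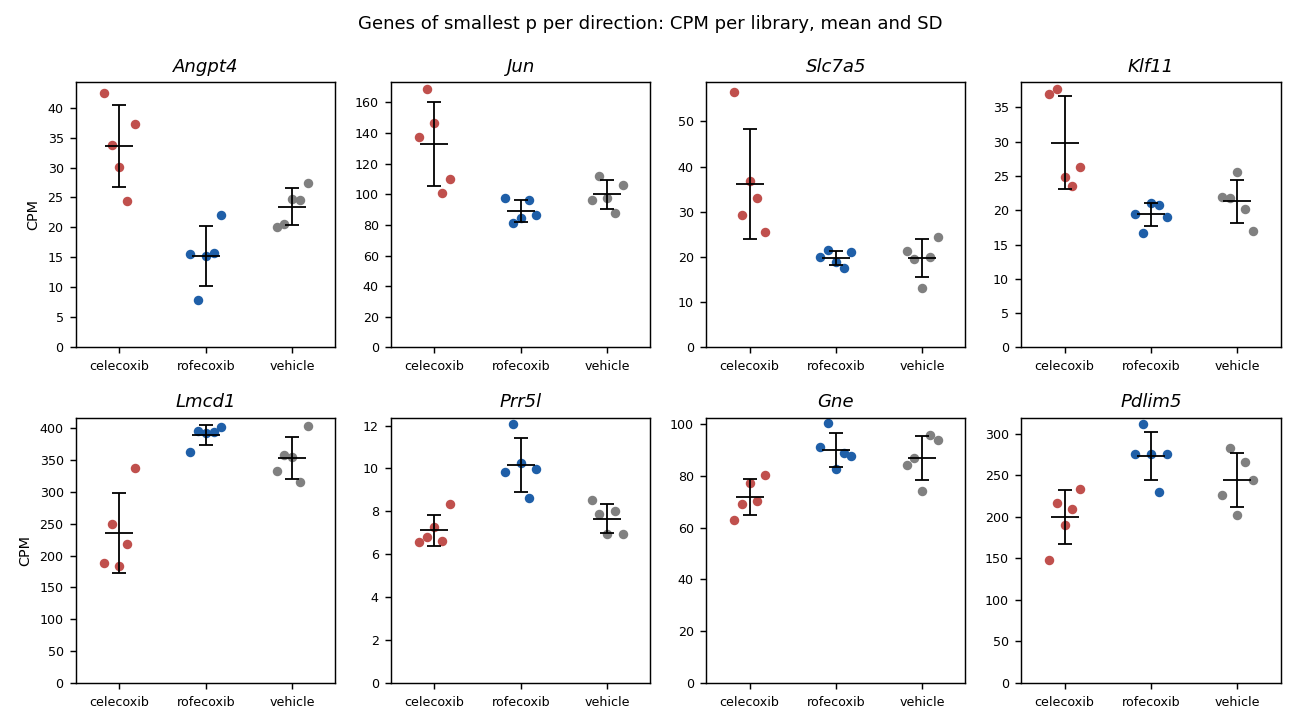
CPM of 8 of the 20 genes of smallest p per direction in each library (points), with mean and SD bars, for the 5 celecoxib, 5 rofecoxib and 5 vehicle libraries; the axes start at 0. Angpt4, Jun, Slc7a5 and Klf11 were higher after celecoxib and Lmcd1, Prr5l, Gne and Pdlim5 lower, with the celecoxib and rofecoxib points of Pdlim5 overlapping.

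Hif3a, Mpp3 and Plekhh1 had larger ratios than Jun, Slc7a5 and Klf11, at lower levels. Hif3a, a hypoxia-inducible factor subunit also listed among glucocorticoid targets, was at 39.5, 15.2, 23, 14.7 and 11.7 CPM after celecoxib and 6.74, 10.0, 6.21, 8.16 and 6.92 after rofecoxib (2.73-fold with a 95% interval of 1.68 to 4.42). Its value without celecoxib 1 was 1.08 on the log2 scale, against 1.45 with it. Mpp3, a membrane scaffold protein of the MAGUK family, was at 8.98, 4.96, 4.1, 3.94 and 4.02 CPM against 2.71, 1.6, 2.58, 2.6 and 2.69 (2.13-fold with a 95% interval of 1.47 to 3.08). Plekhh1 was at 6.17, 4.34, 3.71, 3.27 and 3.37 CPM against 1.87, 2.07, 2.27, 2.06 and 2.18 (1.99-fold with a 95% interval of 1.49 to 2.66), but its row overlaps that of Pigh, which carries 346% of its counts, so reads of the 2 genes may be confused. Pear1, a receptor of platelets and endothelium, had a log2 fold change of 0.44 (95% interval 0.24 to 0.64), Pnrc1, a nuclear receptor coactivator, 0.35 (95% interval 0.19 to 0.52), and Kif3b, a kinesin motor, 0.22 (95% interval 0.12 to 0.33). In each of these 3 genes every celecoxib library lay above every rofecoxib library, by as little as 35.2 against 33.2 CPM for Kif3b.

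In the 5 largest differences without overlap, celecoxib 1 was the highest library of all 10. Mthfd2, a mitochondrial folate enzyme, was at 203, 17.3, 49.9, 23.8 and 21 CPM after celecoxib against 14.9, 16.3, 11, 13 and 14.6 after rofecoxib. The value of celecoxib 1 was far above the other 4, and without it the log2 fold change was 1.0 (edgeR, unadjusted p = 0.00795) in place of 2.17. Lcn2, which encodes lipocalin 2, was at 9.97, 2.09, 4.07, 2.34 and 2.14 CPM against 1.29, 0.534, 1.99, 0.964 and 1.83 and at 1.96, 1.71, 10.2, 2.86 and 1.31 CPM in vehicle libraries, of which vehicle 3 was above the highest celecoxib value. The log2 fold change of Lcn2, 1.64 in all libraries, was 1.0 once celecoxib 1 was left out. Fkbp5 and Fam107a, described with the glucocorticoid genes, were of the same kind.

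Lmcd1 had the smallest p of all genes and was lower after celecoxib. It encodes a LIM and cysteine-rich domain protein of muscle that binds GATA6, and lies at chr6:112223550-112280621 in mm9. Its level was 189, 249.9, 184, 218 and 337 CPM in celecoxib 1 to 5 and 362, 396, 392, 394 and 402 in rofecoxib 1 to 5, against 333, 358, 354, 315 and 404 CPM in vehicle libraries. The rofecoxib libraries lay within a narrow band, and 4 of the 5 celecoxib libraries were far below it, celecoxib 5 being the exception. The ratio was 0.605-fold with a 95% interval of 0.496 to 0.738 (a log2 fold change of -0.73 ± 0.13 (SE), edgeR adjusted p = 0.526). Without celecoxib 5 the log2 fold change was -0.89 and Lmcd1 became the only gene that edgeR called in any run with 1 library left out (adjusted p = 0.00283); over those runs it ranged from -0.89 to -0.65.

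Prr5l, a binding partner of mTOR complex 2, was at 6.58, 6.82, 7.25, 6.61 and 8.32 CPM after celecoxib and 9.84, 12.1, 10.3, 8.61 and 9.96 after rofecoxib (0.701-fold with a 95% interval of 0.604 to 0.814). Its vehicle libraries, at 8.52, 7.86, 6.96, 8.0 and 6.96 CPM, lay nearer to those of celecoxib. Pdlim5, a PDZ and LIM protein of the contractile apparatus, was at 149, 217, 189.7, 209.7 and 234 CPM against 275, 311, 276, 229.8 and 275 (0.73-fold with a 95% interval of 0.612 to 0.87), with celecoxib 5 above rofecoxib 4. Gne, the enzyme that starts sialic acid synthesis, was at 62.8, 69, 77.3, 70.3 and 80.3 CPM against 91.2, 101, 82.8, 88.8 and 87.6 (0.797-fold with a 95% interval of 0.709 to 0.897) without overlap. Plekha5 differed by -0.27 (95% interval -0.39 to -0.15) on the log2 scale, also without overlap. Crtc3, a coactivator of CREB, differed by -0.32 (95% interval -0.50 to -0.13), Asap2, an Arf GTPase-activating protein, by -0.33 (95% interval -0.51 to -0.15), and Ddx18, an RNA helicase, by -0.21 (95% interval -0.31 to -0.11), each with overlapping groups. Pax9, a paired-box transcription factor, was at 1.97, 2.25, 2.66, 1.86 and 1.85 CPM against 2.97, 3.44, 3.15, 2.76 and 2.88, and Cdh16, a cadherin, at 0.441, 0.998, 0.656, 0.545 and 0.972 CPM against 0.903, 1.54, 1.61, 1.54 and 1.58.

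Lmcd1 was also among the 5 largest differences without overlap in this direction, and the other 4 were of genes at far lower levels. Dhrs9, a retinol dehydrogenase, was at 0.373, 0.418, 0.722, 0.898 and 0.81 CPM after celecoxib and 1.48, 1.4, 1.86, 1.54 and 1.42 after rofecoxib (0.42-fold with a 95% interval of 0.236 to 0.745), while vehicle libraries reached from 1.61 to 8.14 CPM. Lmod3, an actin nucleator of muscle, was at 0.339, 1.35, 1.12, 0.962 and 1.17 CPM against 1.39, 1.77, 1.86, 1.41 and 3.19, and Apobec2 at 0.644, 1.35, 1.67, 1.6 and 1.23 CPM against 1.94, 2.1, 1.8, 2.73 and 2.31. Tmem26, a membrane protein, was at 1.76, 3.6, 3.77, 3.27 and 4.47 CPM against 5.03, 6.07, 6.24, 4.56 and 5.44. None of these 4 had an edgeR adjusted p under 0.649.

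Genes that glucocorticoids induce were the list farthest from the rest. Of its 28 tested members 27 were higher after celecoxib, with a median log2 fold change of 0.70 against 0.00517 over all genes; 13 had an unadjusted p under 0.05 in that direction and 0 in the other (background 4.05% and 2.91%), and 4 had no overlap between the drugs (background 0.687%). None passed the adjusted threshold. This list, like the others, was chosen with earlier results of these data known. Its counts beside the background are therefore descriptive, and no set test was run. Fkbp5, a chaperone of the glucocorticoid receptor, was at 972, 126, 279.6, 197 and 101 CPM after celecoxib and 63.3, 79.2, 51.8, 67.2 and 56.1 after rofecoxib. Every celecoxib library was above every rofecoxib library, and celecoxib 1 was above the other 4 (5.27-fold with a 95% interval of 2.03 to 13.7, edgeR adjusted p = 0.649). Vehicle libraries, at 43.6, 46, 57.7, 189.9 and 223 CPM, lay on both sides of the gap between the drugs. Fam107a, an actin-bundling stress protein, was at 303, 63.5, 165, 105 and 53.2 CPM against 39.7, 53.1, 41.7, 33.2 and 51.8. Mt2, a metallothionein, was at 1891, 40.5, 258, 71.5 and 33.4 CPM against 33, 47.7, 31.2, 25.6 and 86.1, and here the other celecoxib libraries overlapped those of rofecoxib.

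The difference was larger with celecoxib 1 than without it. Without that library the median log2 fold change of the 28 genes was 0.35, with 26 still positive and 5 at an unadjusted p under 0.05 and higher, beside backgrounds of 2.3% higher and 1.91% lower in the same run. Fkbp5 was then at 1.47 (edgeR, unadjusted p = 0.0107), Fam107a at 1.14 and Mt2 at 1.17. With rofecoxib 4 left out, 9 members were higher at an unadjusted p under 0.05 (background 3.09% in that run). Dusp1 was the 1 member lower after celecoxib, at -0.076, named for that after its value was seen. The mean log2 CPM of the list was 7.81, 6.15, 6.77, 6.59 and 6.29 in celecoxib 1 to 5, 6.09, 6.04, 5.99, 5.93 and 6.30 in rofecoxib 1 to 5 and 5.70, 5.92, 6.23, 6.60 and 6.60 in vehicle 1 to 5. Thus 3 celecoxib libraries stood above all rofecoxib libraries, and the vehicle libraries lay from 5.70 to 6.60.

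**Figure D3:**
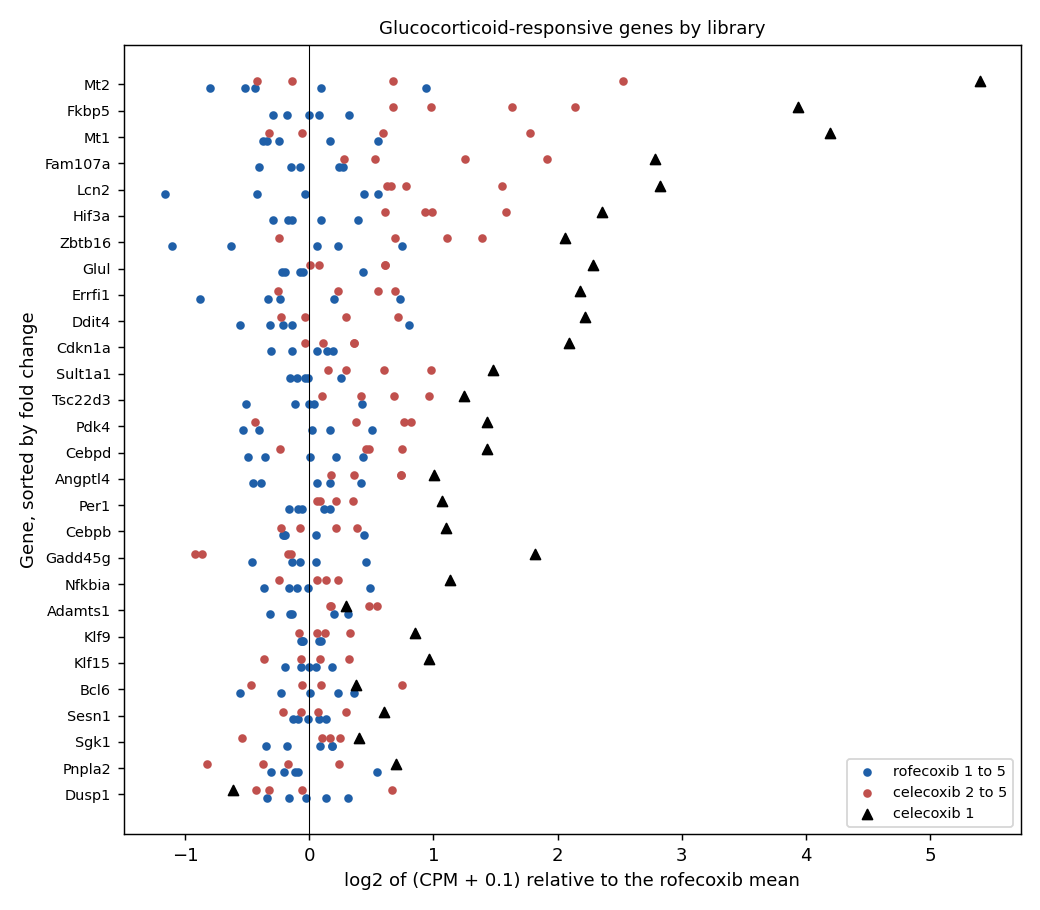
Log2 of (CPM + 0.1) relative to the rofecoxib mean for the 28 glucocorticoid-responsive genes tested, 1 gene a line, with blue points for rofecoxib 1 to 5, red points for celecoxib 2 to 5 and a black triangle for celecoxib 1. Celecoxib 1 lies farthest to the right for most genes, and without it the median log2 fold change was 0.35.

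Genes of cholesterol synthesis and uptake, targets of the sterol-sensing factor SREBP2, were slightly higher after celecoxib. Of 21 tested, 19 were positive with a median of 0.24; 8 had an unadjusted p under 0.05, all higher after celecoxib (background 4.05%), and 2 had no overlap, also higher (background 0.687%). Lss, which closes the sterol ring, was at 36.6, 29, 27.5, 27.8 and 24.8 CPM after celecoxib and 22.7, 20.9, 22.6, 20.9 and 22.9 after rofecoxib (1.33-fold with a 95% interval of 1.12 to 1.57). Idi1, an isomerase of isoprenoid synthesis, was at 17.9, 12.2, 9.52, 11.2 and 7.42 CPM against 7.1, 6.34, 6.59, 6.01 and 6.51 (1.79-fold with a 95% interval of 1.19 to 2.7). In both genes celecoxib 1 was highest and celecoxib 5 lowest of the celecoxib libraries. Vehicle libraries reached from 19.5 to 28.7 CPM for Lss and from 5.19 to 14.4 CPM for Idi1. Sqle, the epoxidase before Lss, was at 59.4, 47.5, 40.2, 46.7 and 29.5 CPM against 30.7, 29, 30.8, 23.8 and 34, and Hsd17b7 at 19.4, 10.3, 8.5, 12.2 and 6.41 CPM against 6.97, 6.51, 6.97, 5.94 and 7.05, each with overlap through celecoxib 5. The count of 8 fell to 2 without celecoxib 1 (background 2.3% in that run) and to 3 without rofecoxib 4 (3.09%), and was 12 without celecoxib 5 (5.4%). The mean log2 CPM of the list was above all rofecoxib libraries in 4 of 5 celecoxib libraries.

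The enzymes that make and break down prostanoids, the pathway both drugs act on, were split evenly. Of 20 tested, 10 were higher and 10 lower, with a median log2 fold change of -0.01, and 2 had an unadjusted p under 0.05 (background 6.96%). Ptgs2, the target itself, was at 47, 30.8, 47.9, 43.4 and 90.8 CPM after celecoxib and 33.7, 47.8, 29, 24.8 and 39.5 after rofecoxib, with 18, 32.3, 27.7, 26.8 and 23.3 CPM in vehicle libraries. The groups overlapped, and celecoxib 5 was well above the rest (1.49-fold with a 95% interval of 1.01 to 2.18, edgeR unadjusted p = 0.0428, adjusted p = 0.707). Without celecoxib 5 the log2 fold change was 0.27 in place of 0.57. The other was Ptgds, prostaglandin D synthase, at 1.42, 0.193, 0.23, 0.385 and 0.259 CPM against 0.355, 0.234, 0.0946, 0.289 and 0.158, which rested on celecoxib 1 (log2 fold change 0.24 without it).

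Ptgs1, the constitutive cyclooxygenase, was at 14, 16.9, 9.06, 19 and 21 CPM after celecoxib and 18.1, 8.88, 20.4, 12.9 and 12.7 after rofecoxib, a log2 fold change of 0.13 (95% interval -0.40 to 0.66). Ptgis, prostacyclin synthase and the most abundant gene of the list, was at 1205, 947, 1302, 1022 and 997 CPM against 1003, 1313, 931, 996 and 1047, a difference of 0.049 (95% interval -0.18 to 0.28). For Ptgis the interval leaves out any change of 1.5-fold. The prostaglandin E synthases Ptges and Ptges2 differed by -0.17 (95% interval -0.70 to 0.37) and -0.098 (95% interval -0.36 to 0.17). Tbxas1, thromboxane synthase, differed by 0.19 (95% interval -0.66 to 1.04) at about 1 CPM, and its row overlaps Hipk2. Hpgd, which inactivates prostaglandins, differed by -0.042 (95% interval -0.77 to 0.68). The reductases Ptgr2 and Cbr1 differed by -0.19 (95% interval -0.44 to 0.069) and -0.17 (95% interval -0.45 to 0.10). Receptors showed as little: of 10 tested, 0 had an unadjusted p under 0.05 (background 6.96%), and the median was 0.026. Ptgir, the prostacyclin receptor, was at 4.44, 9.2, 5.02, 4.94 and 7.03 CPM after celecoxib and 7.19, 4.0, 6.65, 7.0 and 5.53 after rofecoxib, a difference of 0.012 (95% interval -0.48 to 0.51). Tbxa2r, the thromboxane receptor, differed by -0.15 (95% interval -0.37 to 0.067), and Ptgfr, the prostaglandin F receptor, by -0.33 (95% interval -0.92 to 0.25). The prostaglandin E receptors Ptger1 and Ptger4 differed by 0.042 (95% interval -0.074 to 0.16) and 0.16 (95% interval -0.26 to 0.58), and the rows of both overlap other genes.

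**Figure D4:**
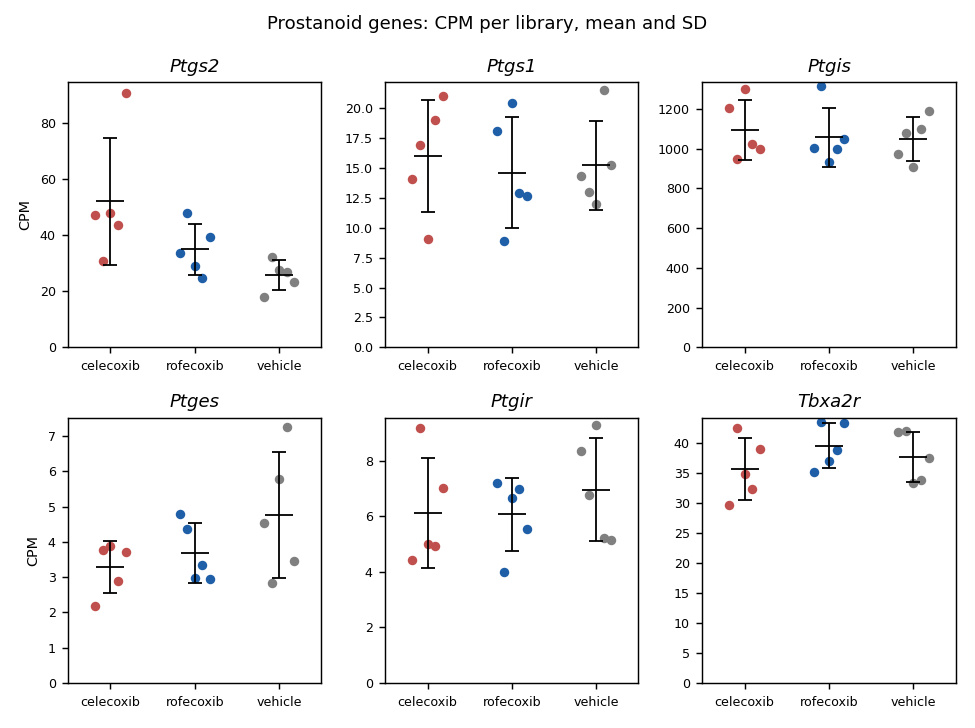
CPM of 6 prostanoid genes in each library (points), with mean and SD bars, for the 5 celecoxib, 5 rofecoxib and 5 vehicle libraries; the axes start at 0. Celecoxib and rofecoxib points overlap in all 6 panels, and the highest Ptgs2 value, 90.8 CPM, is celecoxib 5.

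Carbonic anhydrases, a family with members that bind sulfonamides such as celecoxib, had no member past any threshold. Of 12 tested, 5 were higher and 7 lower with a median of -0.12, or -0.016 without rofecoxib 1, and 0 had an unadjusted p under 0.05 (background 6.96%). Car3, the abundant form of fat and muscle, was at 441, 250.2, 263, 593 and 459 CPM after celecoxib and 1059, 522, 424, 474 and 281 after rofecoxib, a difference of -0.46 (95% interval -1.32 to 0.39). Car11, a catalytically inactive relative, differed by -0.14 (95% interval -0.34 to 0.062), and the mitochondrial Car5b by -0.24 (95% interval -0.77 to 0.29). The membrane-bound Car4 differed by 0.076 (95% interval -0.60 to 0.76), the cytosolic Car13 by -0.19 (95% interval -0.84 to 0.46) and Car2 by -0.43 (95% interval -1.48 to 0.62). Car7 and Car14 had the smallest p of the family, at -0.51 (95% interval -1.09 to 0.077) and 0.80 (95% interval -0.34 to 1.95), but their rows overlap the more abundant Nae1 and Aph1a. Car8, Car9, Car10 and Car15, at no more than 5.41 CPM in any library of either drug, differed by -0.11, 0.16, 0.15 and 0.022.

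Genes of the vessel wall lay close together. Of 26 smooth muscle contractile genes, 1 was higher and 1 lower at an unadjusted p under 0.05 (background 4.05% and 2.91%), with a median of -0.027. Myocd, the coactivator that drives the contractile programme, was at 50.3, 45.3, 51, 48.6 and 77.6 CPM after celecoxib and 63.9, 79.9, 80.4, 60.6 and 66.8 after rofecoxib (0.776-fold with a 95% interval of 0.625 to 0.965). The celecoxib libraries 1 to 4 were below every rofecoxib library, and celecoxib 5 was not. Hspb1, a small heat shock protein, was at 1175, 292, 550.1, 381 and 324 CPM against 336, 428, 297, 219 and 331, with celecoxib 1 far above the others (log2 fold change 0.26 without it). Des, desmin, differed by 0.39 (95% interval -0.011 to 0.80), and the myosin phosphatase subunit Ppp1r12a by -0.16 (95% interval -0.35 to 0.037).

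In the nitric oxide and cyclic GMP pathway 3 of 19 genes were lower after celecoxib at an unadjusted p under 0.05 and 0 higher (background 2.91% and 4.05%), with a median of -0.026. Cav1, the caveolar protein that restrains endothelial nitric oxide synthase, was at 951, 1019.7, 1075, 1048 and 1029 CPM after celecoxib and 1143, 1263, 1148, 1119 and 1063 after rofecoxib, overlapping through celecoxib 3 and rofecoxib 5 (0.893-fold with a 95% interval of 0.823 to 0.969). Gucy1b3, a subunit of the nitric oxide receptor guanylate cyclase, was at 186, 295, 286, 263 and 294 CPM against 297, 349.6, 331, 329.5 and 299.6, with the highest celecoxib library just below the lowest rofecoxib library. Nos2, the inducible synthase, was between 0.427 and 1.73 CPM in all 10 libraries and differed by -0.62 (95% interval -1.24 to -0.00595). Spr, which makes the synthase cofactor, differed by -0.14 (95% interval -0.28 to 0.000181), and Nos3, the endothelial synthase, by -0.026 (95% interval -0.53 to 0.47). Among 24 endothelial genes 0 had an unadjusted p under 0.05 (background 6.96%) and the median was -0.024. Pecam1, the endothelial adhesion molecule, differed by 0.29 (95% interval -0.00858 to 0.59), Kdr, a receptor of vascular endothelial growth factor, by -0.47 (95% interval -1.02 to 0.084), the tight junction gene Cldn5 by 0.34 (95% interval -0.12 to 0.80) and the transcription factor Erg by -0.083 (95% interval -0.21 to 0.048).

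Of 24 circadian clock genes, 2 were higher and 1 lower after celecoxib at an unadjusted p under 0.05 (background 4.05% and 2.91%, or 6.96% in either direction). The median was 0.13, and 0.048 without celecoxib 1. Npas2, a partner of Arntl, was at 3.36, 4.67, 3.77, 5.1 and 5.57 CPM after celecoxib and 6.74, 7.04, 7.53, 6.42 and 6.92 after rofecoxib, without overlap (0.648-fold with a 95% interval of 0.464 to 0.907). Vehicle libraries spread from 4.38 to 11.9 CPM, wider than both. The casein kinases Csnk1e and Csnk1d, which phosphorylate the period proteins, differed by 0.13 (95% interval 0.036 to 0.23) and 0.12 (95% interval 0.024 to 0.22). Cry2, a repressor of the clock, differed by 0.18 (95% interval -0.000101 to 0.37).

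Fat genes had negative medians and a wide spread between libraries. The white and general adipocyte list had a median of -0.35 over 25 genes, 18 of them negative, yet 0 lower and 2 higher at an unadjusted p under 0.05 (background 2.91% and 4.05%). With 1 library left out the median ranged from -0.59 (without celecoxib 4) to -0.12 (without rofecoxib 1). With the mean of the 2 fat lists as a covariate it was -0.028. That covariate is made of these same genes, so it draws the median toward 0 by construction. The summed level of the white list was 2478 to 5581 CPM after celecoxib, 3201 to 6292 after rofecoxib and 3966 to 8748 in vehicle libraries, so the groups overlapped. Rbp4, retinol binding protein, was one of the 2 and had no overlap, at 157, 150.2, 169.8, 149.9 and 158 CPM against 133, 137, 122, 131 and 129. The other was Plin4, a lipid droplet protein, at 2126, 825, 1323, 919.5 and 804 CPM against 845, 926, 749.6, 861 and 771, and its log2 fold change without celecoxib 1 was 0.22 in place of 0.53. Plin1, the droplet coat of mature fat cells, was at 24.6, 19.8, 18.8, 63.3 and 30.7 CPM against 103, 42.9, 44.1, 47 and 25.7, a difference of -0.74 (95% interval -1.71 to 0.23), and Aqp7, a glycerol channel, differed by -0.55 (95% interval -1.27 to 0.17). Brown adipocyte genes had a median of -0.27 over 22 genes, 1 higher and 0 lower at an unadjusted p under 0.05 (background 4.05% and 2.91%). That median ranged from -0.62 (without celecoxib 4) to -0.072 (without rofecoxib 1) with 1 library left out. It was 0.021 with the same covariate, again drawn toward 0 by construction. Acot11, a thioesterase, was that 1, at 0.34 (95% interval 0.065 to 0.62); Gyk, Ppargc1b and Elovl3 differed by -0.26 (95% interval -0.65 to 0.12), -0.53 (95% interval -1.38 to 0.31) and -0.94 (95% interval -2.58 to 0.69). With that covariate edgeR again called 0 genes, with 1330 at an unadjusted p under 0.05.

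Markers of immune, blood and nerve cells varied widely among the libraries of each drug. The inflammatory list had a median of 0.20 over 21 genes, or 0.08 without celecoxib 5. At an unadjusted p under 0.05, 1 was lower and 0 higher (background 2.91% and 4.05%). That 1 was Cxcl5, a neutrophil chemokine, at or below 0.601 CPM in every library of the 2 drugs. Socs3, a feedback inhibitor of cytokine signals, was at 43.2, 11.1, 14.5, 7.47 and 6.38 CPM against 6.71, 6.77, 8.73, 6.68 and 10.7, and celecoxib 1 was the highest. Ccl7, a monocyte chemokine, differed by 1.57 (95% interval -0.17 to 3.30), and Icam1, a leukocyte adhesion molecule, by 0.29 (95% interval -0.11 to 0.69). Of 10 mast cell and granulocyte genes all were positive with a median of 0.44, and 0 passed an unadjusted p of 0.05 (background 6.96%). The neutrophil genes S100a8, S100a9 and Csf3r were highest in celecoxib 1, at 4.61, 6.1 and 3.36 CPM, and their log2 fold changes went from 1.70, 1.49 and 0.78 to -0.60, -0.62 and -0.13 without it. The mast cell protease Cma1 differed by 0.54 (95% interval -0.22 to 1.30).

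Red cell and platelet genes had a median of 0.51 over 10 genes, or 0.08 without celecoxib 5. Of the 10, 7 were positive and 3 negative, and 0 had an unadjusted p under 0.05 (background 6.96%). Hbb-b1, a beta globin, was at 41.1, 56.4, 30.6, 19.7 and 114 CPM after celecoxib and 46, 10.4, 67.4, 27 and 17.7 after rofecoxib, and the libraries of each drug fell in the same order for Hba-a1, Hba-a2 and Alas2; globin copies are near identical and share reads. Sympathetic neuron genes had a median of 0.17 over 25 and Schwann cell and nerve genes one of 0.16 over 20. In either list 0 had an unadjusted p under 0.05 (background 6.96%). Both medians turned on single libraries: with 1 library left out they ranged from -2.26 (without celecoxib 4) to 1.32 (without rofecoxib 5) and from -0.71 (without celecoxib 4) to 0.77 (without rofecoxib 5). Without celecoxib 4, rofecoxib 3 and rofecoxib 5 together they were 2.17 and 0.42. Snap25, a protein of synaptic release, was at 0.136, 6.6, 0.0656, 66.6 and 0.13 CPM against 0.0645, 0.167, 17.2, 0.0964 and 33.3. The highest libraries were celecoxib 4, rofecoxib 5 and rofecoxib 3, as they were for Chga, Slc18a2 and Elavl4. The myelin genes Mal and Mag were highest in celecoxib 4 and rofecoxib 5, and Ncam1 and Pmp22 differed by -0.17 (95% interval -0.38 to 0.043) and 0.094 (95% interval -0.15 to 0.34). Of 6 mesothelial and epithelial genes tested, 4 were positive and 2 negative, with a median of 0.21. The median ranged from -0.28 (without celecoxib 4) to 0.67 (without celecoxib 1) with 1 library left out. At an unadjusted p under 0.05, 1 was lower and 0 higher (background 2.91% and 4.05%). The lower gene was Cldn3, a claudin, at -0.41 (95% interval -0.79 to -0.023). The keratins Krt7 and Krt18 differed by 0.28 and 0.13, and Lrrn4 was near 0 in most libraries. The plot of list medians places the 17 lists described beside each other.

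**Figure D5:**
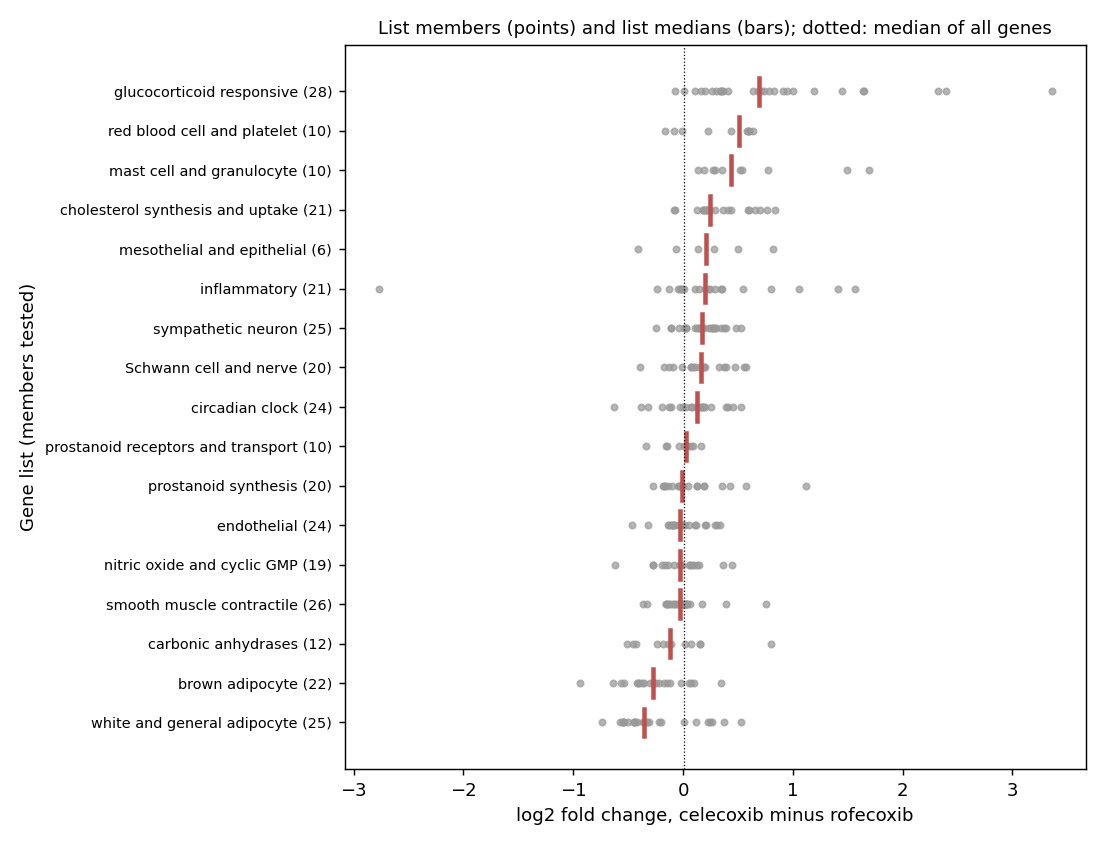
Log2 fold change (celecoxib minus rofecoxib) of each tested member (grey points) and the median (red bar) of the 17 gene lists described, with the number of members tested in brackets; the dotted line is the median of all genes. The glucocorticoid list has the highest median, 0.70, and the white and general adipocyte list the lowest, -0.35.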

How the data were processed

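Poly(A)-selected TruSeq libraries of thoracic aorta RNA were made over 3 days, per the labels' protocols, and the day of each is unknown here. The authors deposited 1 table of whole-number read counts per gene for all libraries, with mm9 coordinates; CASAVA 1.8.2 and STAR 2.5.2a are named in the submitters' processing notes, with counting step and strand use not given in the sources used here. Deposited totals are nearly equal (30937046 to 30967115). Why they agree within 0.0971% is not stated, and they may not show the original sequencing depth; the 37 mitochondrial rows hold 0 counts. All 15 libraries were fitted together in edgeR 4.0.16 (R 4.3.3; TMM scaling, low counts filtered by filterByExpr, robust quasi-likelihood test), and the contrast celecoxib minus rofecoxib was adjusted by Benjamini-Hochberg over 15134 genes, which carried 99.95% of the counts; the threshold was 0.05. CPM values used the TMM library sizes. Alternatives were DESeq2 1.42.0, limma-voom 3.58.1, other scalings and filters, covariates and leaving out each of the 10 celecoxib and rofecoxib libraries. Named genes were the 10 of smallest p per direction at a mean of at least 1 CPM, the 5 largest without overlap per direction, the 4 of smallest p in each of 17 lists, and named prostanoid and carbonic anhydrase genes; predicted genes were left out. Members and lists were chosen with earlier results of these data known. Of 974 list symbols 971 matched the table, and 817 list members were tested. Reads of overlapping genes cannot be told apart without strand: 12 of 110 genes named overlap a row with at least 10% of their counts, namely Plekhh1, Asap2, Ptger4, Ptger1, Car7, Car9, Car14, Car15, Csnk1d, Alas2, Slc18a2 and Tbxas1. Figures were drawn with matplotlib 3.10.9.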

Additional observations from a re-analysis of the deposited data

Results flagged for a closer look

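In 254 groups of 5 libraries (the celecoxib and rofecoxib CPM of each named gene and the library means of the described lists), 34 groups had 1 library farther from the other 4 than Dixon's 95% critical value of 0.71 allows. Independent, unselected normal values would give about 1 in 20, or 12.7. Here many genes vary together, and many were named for their p or fold change. The 34 therefore cannot be read as an excess over 12.7. Celecoxib 1 accounted for 13 of the 34, and each value is given in CPM with the range of the other 4 celecoxib libraries. In celecoxib 1, Kif3b was at 42 (others 35.2 to 36.6), Mpp3 was at 8.98 (others 3.94 to 4.96) and Fkbp5 was at 972 (others 101 to 279.6). In celecoxib 1, Mthfd2 was at 203 (others 17.3 to 49.9), Lcn2 was at 9.97 (others 2.09 to 4.07) and Plekha5 was at 34.9 (others 41.2 to 42.9). In celecoxib 1, Ptgds was at 1.42 (others 0.193 to 0.385), Mt2 was at 1891 (others 33.4 to 258) and Csnk1e was at 86.7 (others 75.6 to 78.8). In celecoxib 1, Socs3 was at 43.2 (others 6.38 to 14.5), S100a8 was at 4.61 (others 0.0962 to 0.389) and S100a9 was at 6.1 (others 0.0321 to 0.68). In celecoxib 1, Csf3r was at 3.36 (others 0.481 to 0.745). In rofecoxib 2, Mpp3 was at 1.6 (others 2.58 to 2.71). In rofecoxib 1, Lmcd1 was at 362 (others 392 to 402), Ddx18 was at 27 (others 28.6 to 29) and Cdh16 was at 0.903 (others 1.54 to 1.61). In rofecoxib 1, Plin1 was at 103 (others 25.7 to 47) and Ppargc1b was at 8.35 (others 3.16 to 4.27). In rofecoxib 5, Lmod3 was at 3.19 (others 1.39 to 1.86), Csnk1e was at 77.4 (others 69.8 to 71.2) and Mal was at 21.6 (others 1.47 to 6.46). In rofecoxib 5, Mag was at 4.43 (others 0.161 to 0.63) and Car10 was at 1.17 (others 0.0334 to 0.347). In celecoxib 5, Ptgs2 was at 90.8 (others 30.8 to 47.9) and Myocd was at 77.6 (others 45.3 to 51). In celecoxib 4, Plin1 was at 63.3 (others 18.8 to 30.7), Mal was at 30.3 (others 2.99 to 10.0) and Mag was at 6.28 (others 0.102 to 1.29). In celecoxib 4, Chga was at 9.01 (others 0 to 2.0), Slc18a2 was at 65.2 (others 3.05 to 12.6) and Snap25 was at 66.6 (others 0.0656 to 6.6). In celecoxib 4, Elavl4 was at 7.79 (others 0.0324 to 0.998) and Lrrn4 was at 1.57 (others 0 to 0.227). No list mean was among them, and no group effect could be compared across tissues or times in this design.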

How the results depend on the processing

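edgeR called between 0 and 1 genes when 1 library was left out, and DESeq2 called 19, with no adjusted p for 594 genes; the remaining alternatives called 0. The count at an unadjusted p under 0.05, 1053, ranged from 645 (without celecoxib 1) to 1519 (without celecoxib 4). Genes without overlap numbered 254 to 471 when a library was left out and 1038 without celecoxib 4, rofecoxib 3 and rofecoxib 5 together (chosen after seeing the data), where fewer libraries overlap less often by construction; that run called 0 genes and had 861 at an unadjusted p under 0.05. The replicate numbers gave no clear pairing of celecoxib with rofecoxib libraries. Same-numbered deviations from the group means correlated at 0.35, -0.36, -0.60, -0.72 and -0.37, and no library correlated best with its own number. Sympathetic genes led the variance among these libraries, so these correlations cannot exclude a weaker pairing. With a replicate block 0 genes were called and 1070 had an unadjusted p under 0.05; 7 glucocorticoid-responsive genes in place of 13 were then higher at that p (background 3.59%). With the block the sympathetic median was -1.13 and the Schwann cell and nerve median -0.011, in place of 0.17 and 0.16. The carbonic anhydrase median was 0.063 with the fat covariate, and the inflammatory median 0.059 with a filter of 1 CPM in 5 libraries. By limma-voom the circadian clock median was 0.074 and the red cell and platelet median 0.33. Without celecoxib 4, rofecoxib 3 and rofecoxib 5 the white adipocyte median was -0.80, the brown -0.66 and the mast cell and granulocyte 0.23. Of 2401 results for single genes, 2322 kept direction and side of the threshold, 14 were stronger and 65, of 25 genes, changed sign; the cause was not tested. A single log2 fold change, Ptgir -0.00905, changed sign with deposited totals as library sizes. The log2 fold changes that changed sign with the replicate block were Chga -1.09, Slc18a2 -0.32, Snap25 -1.34, Elavl4 -1.12 and Car4 -0.018. A single log2 fold change, Chga -0.039, changed sign with a sympathetic covariate. The log2 fold changes that changed sign with a fat covariate were Car3 0.018, Snap25 -0.13, Elavl4 -0.12, Ptges2 0.00189, Ptgir -0.17, Nos3 0.10, Car13 0.17 and Car8 0.093. The log2 fold changes that changed sign without celecoxib 4, rofecoxib 3 and rofecoxib 5 were Lrrn4 -0.47, Tbxas1 -0.13 and Nos3 0.094. The log2 fold changes that changed sign by limma-voom were Chga -0.77, Snap25 -0.052, Lrrn4 -0.19, Ptgir -0.012 and Car4 -0.071. With 1 library left out in turn, log2 fold changes spanned 0 as S100a8 -0.60 to 2.31, S100a9 -0.62 to 1.86, Csf3r -0.13 to 1.09, Hpgd -0.22 to 0.16, Nos3 -0.24 to 0.058, Car4 -0.21 to 0.26, Car8 -0.39 to 0.074, Ptgir -0.18 to 0.11, Car10 -0.56 to 1.40, Car15 -0.014 to 0.061 and Ptgis -0.026 to 0.14. Others in the same runs were Mal -0.38 to 1.56, Mag -1.02 to 2.36, Chga -1.43 to 1.23, Slc18a2 -1.16 to 0.97, Snap25 -2.55 to 1.74, Elavl4 -2.26 to 1.40, Lrrn4 -0.71 to 1.27, Alas2 -0.00888 to 1.0, Krt7 -0.025 to 0.53, Car13 -0.35 to 0.13 and Ptgs1 -0.00299 to 0.28.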

Other observations

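Several genes that DESeq2 called lie outside the rule for named genes and were chosen after their values were seen. Pgf, placental growth factor, a ligand of the VEGF receptor Flt1, was at 42.6, 13.3, 14.7, 12 and 13.9 CPM in celecoxib 1 to 5 and 9.16, 6.91, 8.04, 9.28 and 8.22 in rofecoxib 1 to 5. Adamts14, a protease that trims procollagen, was at 65.5, 38.3, 39, 29.2 and 39 against 24.9, 17.6, 25.5, 22.1 and 21.3. Klf13, another Kruppel-like factor, was at 384, 267, 351, 289 and 243 against 210.2, 232, 194, 216 and 231. The groups did not overlap in any of these 3 genes, and by edgeR their adjusted p was 0.642, 0.605 and 0.605.

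Among the lists not described above, p53 targets had 5 members higher and 1 lower after celecoxib at an unadjusted p under 0.05 out of 20 (background 4.05% and 2.91%), with a median log2 fold change of 0.12, or 0.054 without celecoxib 1. Immediate early genes had 3 higher and 0 lower of 25, with a median of 0.16, or 0.26 without rofecoxib 1. Oxidative phosphorylation and citrate cycle genes had 0 of 47 in either direction and a median of -0.034, and collagen and fibroblast genes 0 with a median of 0.041. Of the 40 lists with at least 5 tested members, 33 had a median within 0.2 of that of all genes.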
